A study of Mus musculus with 12 samples.

Results

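The receptors that bind corticosterone in the mouse brain, and a set of genes that glucocorticoids are known to regulate, were followed in RNA from whole hippocampi. The set held 10 genes out of 24209 gene symbols in the count table. Nr3c1, which encodes the glucocorticoid receptor, and Nr3c2, which encodes the mineralocorticoid receptor, were the receptor genes. The other 8 were Fkbp5, Sgk1, Tsc22d3, Hif3a, Zbtb16, Plin4, Mt1 and Mt2. They were chosen by name, by joining the RefSeq entries of the table to mouse gene symbols, and all 10 had at least 1 entry, with 17 entries in all.

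Corticosterone is released by the adrenal glands in a daily rhythm and in response to stress. Both receptors are kept in the cytoplasm by a chaperone complex, enter the nucleus when the steroid binds, and then act on DNA at short palindromic sequences called glucocorticoid response elements. The mineralocorticoid receptor binds corticosterone more tightly than the glucocorticoid receptor does, and hippocampal neurons are known for expressing both. Among the responsive genes, Fkbp5 encodes a chaperone partner that lowers the affinity of the receptor for the steroid, Sgk1 a kinase that acts on ion transport, and Tsc22d3 the leucine zipper protein GILZ. Zbtb16 encodes the transcription repressor PLZF, Plin4 a coat protein of lipid droplets and Hif3a a member of the hypoxia-inducible factor family. Mt1 and Mt2 encode metallothioneins, small proteins that bind zinc and copper and that also respond to metals through the factor MTF1.

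The mice were 12 male C57BL/6 animals in 2 experiments of 6. At 10 weeks of age they were injected in both hippocampi with AAV5 vectors, and the tissue was taken 10 weeks after injection. The GFP-miR-9sp group (3 mice) received a vector for GFP joined to a sponge, a chain of imperfect binding sites that takes up miR-9, and the GFP-miR-34sp group (3 mice) received such a vector for miR-34. Each experiment had its own 3 GFP Ctrl mice, injected with GFP alone, so that all 12 mice carried an AAV vector with GFP. The labels name the experiment of the GFP Ctrl mice for miR-34, and the other 3 were taken as the miR-9 controls, since the methods count 3 for each experiment. A human synapsin promoter drove the vectors, which limits the sponge to neurons, whereas the RNA came from the whole dissected tissue. In such RNA, fewer cells of a type and less RNA per cell cannot be told apart. The methods describe behavioural tests, a water maze among them, in the weeks before the tissue was taken. Corticosterone levels and the time of day at death are not given in the sources used here.

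The deposited values were raw counts of 50 bp reads per RefSeq entry. Depth was higher in the miR-9 experiment, with totals of 17279620 to 24428477 reads per mouse, than for the miR-34 mice, with 11029604 to 16934133. Levels are given as CPM, the reads of a gene per 1000000 counted reads of that mouse. The labels call the cells hippocampal neurons. Markers of hippocampal neurons (8 genes, such as Prox1, Wfs1 and Camk2a) summed to 4086 to 5229 CPM in the 12 mice, and markers of astrocytes (8 genes) to 3333 to 3819, so the RNA held other cell types as well. Markers of the choroid plexus, the tissue in the ventricle next to the hippocampus, varied most: the summed level of 10 genes was 652.9 to 2385 CPM in the GFP Ctrl mice of the miR-34 experiment and 76.39 to 156.3 in the GFP-miR-34sp mice. In that comparison 4 of the 8 choroid plexus genes tested were lower in the sponge mice at an adjusted p under 0.05 (edgeR). In the miR-9 experiment the same sum was 129.7 to 752.8 in GFP Ctrl mice and 58.47 to 891.9 in GFP-miR-9sp mice.

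The sponges act on miRNAs that share a seed, the stretch from base 2 to base 8 that pairs with a target. The mature sequences (RefSeq) are shown because the members were searched for sites of these miRNAs, with the seed in capitals.
miR-9-5p: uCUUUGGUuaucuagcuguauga
miR-34a-5p: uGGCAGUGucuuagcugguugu
miR-34b-5p: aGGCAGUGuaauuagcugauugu
The last pair share 1 seed. The 7 bases complementary to the miR-9 seed, ACCAAAG, were found in the longest 3′ UTR (GENCODE M1) of 0 of 10 members, against 11.4% of all genes. The 7 bases complementary to the miR-34 seed, CACTGCC, were found once in Nr3c1 and once in Zbtb16, against 14% of all genes. Neither site was followed by the A that makes an 8-base match. The Zbtb16 site, at bases 209 to 215 of its 3′ UTR, is shown with its surroundings because Zbtb16 had the smallest unadjusted p of the members after GFP-miR-34sp.
Zbtb16 site: ggctatcaaacCACTGCCccctccctgggg

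The sequence around gene starts was searched for the elements through which these genes are known to respond. The window ran from 250 bases before to 50 bases after each start in the RefSeq table (GRCm38.p6), and 8 members had at least 1 window. Nr3c1 and Zbtb16 had none in the table. The starts used for Nr3c2, Plin4 and Mt1, and some of those of Sgk1 and Tsc22d3, lie inside the gene coordinates given below. Windows at those starts therefore hold more than 50 bases of the gene. The glucocorticoid response element was taken as the hexamer AGAACA, 3 bases of any kind and its reverse complement TGTTCT. It was found without a mismatch in 3 of 32851 windows (0.00913%), and 1 of these belonged to Sgk1, at the fifth of its 6 starts. With up to 1 mismatch it was found in 54 windows (0.164%), and no other member was among them. The hexamer alone, on either strand and counted also inside the full element, occurred in 19% of windows. The metal response element core, TGCACNC or TGCGCNC on either strand, occurred in 25.7%. Mt1 held 3 cores and Mt2 held 4, and 0.517% of windows held 4 or more. These matches are descriptions of the letters and were not measured as binding. The Sgk1, Mt1 and Mt2 windows are shown for that reason, with hexamers (Sgk1) or cores (Mt1 and Mt2) in capitals. All windows are written along the plus strand, and matches on the minus strand appear in capitals as their reverse complements.
Sgk1, chr10:21993640-21993939: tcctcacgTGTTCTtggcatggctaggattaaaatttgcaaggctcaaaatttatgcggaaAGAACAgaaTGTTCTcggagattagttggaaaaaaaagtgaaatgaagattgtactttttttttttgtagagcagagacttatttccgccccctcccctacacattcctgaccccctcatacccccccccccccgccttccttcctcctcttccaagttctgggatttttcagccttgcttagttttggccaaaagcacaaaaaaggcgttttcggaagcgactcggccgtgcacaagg
Mt1, chr8:94178839-94179138: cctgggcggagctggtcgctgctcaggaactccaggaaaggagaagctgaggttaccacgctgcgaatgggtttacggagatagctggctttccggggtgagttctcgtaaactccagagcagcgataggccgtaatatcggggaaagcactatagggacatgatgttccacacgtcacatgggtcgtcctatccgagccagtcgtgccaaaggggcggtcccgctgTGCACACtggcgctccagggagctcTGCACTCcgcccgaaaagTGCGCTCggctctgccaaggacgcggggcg
Mt2, chr8:94172368-94172667: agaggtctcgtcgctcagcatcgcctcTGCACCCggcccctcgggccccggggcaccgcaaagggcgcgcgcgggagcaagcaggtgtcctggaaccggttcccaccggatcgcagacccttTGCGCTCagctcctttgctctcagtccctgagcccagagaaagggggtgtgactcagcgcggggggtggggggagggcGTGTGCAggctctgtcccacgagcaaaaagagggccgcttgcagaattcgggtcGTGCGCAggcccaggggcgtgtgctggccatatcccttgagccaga

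Mt1 and Mt2 lie next to each other, at chr8:94178883-94180327 and chr8:94172618-94173567 of the same build. In the Sgk1 window the full element began at position -189 relative to the start.

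The first question was how strongly each gene was represented, entry by entry. Nr3c1 (NM_008173, 42832 reads over the 12 mice), Nr3c2 (NM_001083906, 54665 reads), Fkbp5 (NM_010220, 16754 reads) and Zbtb16 (NM_001033324, 24356 reads) each had 1 entry. The same held for Plin4 (NM_020568, 764 reads), Mt1 (NM_013602, 37292 reads) and Mt2 (NM_008630, 17877 reads). For these 7 genes the sum over entries is the entry itself. On GRCm38.p6 the RefSeq gene models run over chr8:76898083-77245012 for Nr3c2, chr17:28398753-28486149 for Fkbp5, chr9:48651797-48836225 for Zbtb16 and chr17:56100587-56109948 for Plin4. Those of Sgk1, Tsc22d3 and Hif3a run over chr10:21882184-21999903, chrX:140539528-140600522 and chr7:17030993-17062427.

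Sgk1 was split over 6 entries that share most of their sequence. NM_001161845, the longest with 3105 bases, held 1079 of 1218 reads (88.6%), with 54 to 134 reads per mouse. NM_011361 held 101 reads (8.29%), NM_001161850 held 26 (2.13%), and NM_001161847, NM_001161848 and NM_001161849 held 5, 3 and 4. Tsc22d3 had 2 entries, NM_010286 with 611 of 777 reads (78.6%) and NM_001077364 with 166 (21.4%). In both genes all 12 mice had reads on the leading entry.

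Hif3a was listed at almost no reads. NM_001162950 had 0 reads in all 12 mice, which allows up to 3 reads per mouse, or 0.123 to 0.272 CPM, and this covers counting error only. NM_016868 had 4 reads in 3 mice. Hif3a was therefore not tested, and the comparisons below rest on 9 of the 10 members. How the authors' counting treated reads shared by several entries is not given in the sources used here. Genes with 1 coding entry passed a mean of 10 scaled reads in 65.2% of cases in the miR-9 experiment and 63.6% in the miR-34 experiment. Of genes with 2 coding entries 40.3% and 36.0% passed, and of genes with 3 or more 34.2% and 29.4%. The levels of Sgk1, Tsc22d3 and Hif3a are therefore uncertain as gene totals, and low values for these 3 genes cannot be told apart from reads left uncounted.

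Per length, the metallothioneins were the most abundant members and the receptors came next. The median over the 12 mice was 337.0 CPM per kilobase for Mt1 and 163.7 for Mt2, followed by 66.56 for Nr3c2 and 33.15 for Nr3c1. Zbtb16 (22.94) and Fkbp5 (21.96) came next, and their ranges of 21.77 to 28.90 and 18.55 to 24.44 overlapped. Sgk1 (2.002) and Tsc22d3 (1.862) were more than 10 times lower than Fkbp5 and also overlapped each other. Plin4 had a median of 0.6111, and Hif3a a median of 0. In the other neighbouring pairs the lowest mouse of the higher gene lay above the highest mouse of the lower gene.

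**Figure D1:**
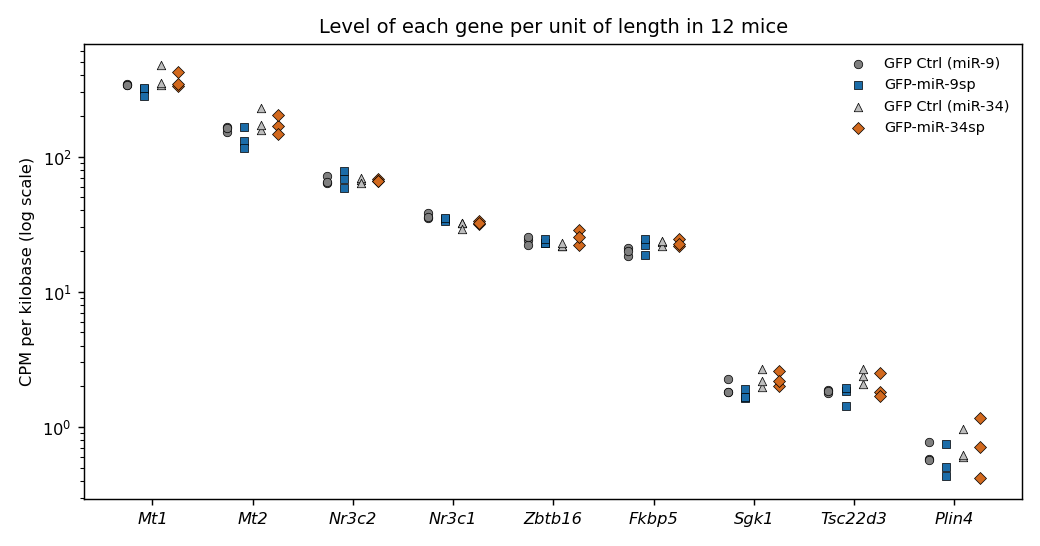
CPM per kilobase (log scale) of 9 genes in 12 mice, 1 point per mouse, with symbols for the 4 groups; Hif3a, listed at 0 in 9 mice, is left out. The metallothioneins lie highest, Nr3c2 lies above Nr3c1 in all 12 mice, and Sgk1, Tsc22d3 and Plin4 lie lowest.

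The mineralocorticoid receptor transcript exceeded that of the glucocorticoid receptor in every mouse. Per length, the ratio of Nr3c2 to Nr3c1 was 2.04, 1.67 and 1.79 in the GFP Ctrl mice of the miR-9 experiment and 1.96, 1.78 and 2.26 in the GFP-miR-9sp mice. It was 2.09, 2.18 and 2.20 in the GFP Ctrl mice of the miR-34 experiment and 2.04, 2.08 and 2.03 in the GFP-miR-34sp mice. The groups of the miR-9 experiment overlapped, and those of the miR-34 experiment did not. With 3 mice against 3 an exact two-sided permutation test cannot go below p = 0.1, and it gave p = 0.5 for the miR-9 experiment and p = 0.1 for the miR-34 experiment. The ratio of Mt1 to Mt2 lay between 1.91 and 2.45 in the 12 mice, and the groups overlapped in both experiments.

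The spread between mice differed among the members. The highest mouse exceeded the lowest by 1.31 times for Nr3c1, 1.34 for Nr3c2, 1.32 for Fkbp5 and 1.33 for Zbtb16, in CPM. It was 1.60 for Sgk1, 1.72 for Mt1, 1.88 for Tsc22d3, 1.98 for Mt2 and 2.81 for Plin4. Plin4 was counted at 28 to 108 reads and Tsc22d3 at 2.836 to 5.345 CPM, so their counting error was larger than that of the abundant genes. Relative to the model's spread for all genes, Plin4 stood at the 94.5th percentile in the miR-9 experiment and at the 99.1st in the miR-34 experiment. Nr3c1 stood at the 34th and 18.8th, below the median gene in both.

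The second question was whether the sponges altered the members, with each sponge set against the GFP Ctrl mice of its own experiment. Differences are log2 differences of gene sums from edgeR, with positive values for a higher level in the sponge mice. After GFP-miR-9sp, 0 of the 9 members tested passed an adjusted p of 0.05, as did 0.0% of all 13045 genes. At an unadjusted p under 0.05 there was 1 member, Mt1, against 4.73% of all genes. DESeq2 likewise called 0 members at an adjusted p of 0.05. The median log2 difference of the members was -0.07 and that of all genes tested was 0.00 (-0.0006).

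Among the receptors, Nr3c1 stood at 222.8, 241.6 and 228.2 CPM in the GFP Ctrl mice and at 219.7, 209.8 and 221.1 in the GFP-miR-9sp mice. The groups did not overlap, and the sponge mice were the lower ones. The log2 difference was -0.07 (SE 0.05, 95% interval -0.17 to 0.04, adjusted p = 0.97). Nr3c2 stood at 293.4, 260.2 and 263.2 against 277.6, 241.0 and 322.7 CPM. GFP-miR-9sp mice 17 and 23 gave the lowest and the highest Nr3c2 of the experiment, and the log2 difference was 0.07 (interval -0.15 to 0.29).

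Among the responsive genes, Mt1 was the steadiest in the GFP Ctrl mice, with 185.8, 182.3 and 182.6 CPM. The GFP-miR-9sp mice had 170.7, 174.1 and 151.0, all below the GFP Ctrl mice. The log2 difference was -0.13 (SE 0.05, interval -0.23 to -0.02, unadjusted p = 0.020, adjusted p = 0.97). Without GFP-miR-9sp mouse 23, the lowest, it was -0.08. Mt1 and Nr3c1 were the 2 of 9 members whose groups did not overlap, against 11.0% of all genes. The summed level of 8 microglia markers was lower without overlap in the same mice, at 610.0 to 648.0 against 661.2 to 680.4 CPM, and 7 of these 8 genes had negative log2 differences. All 7 hippocampal neuron markers tested had positive ones, with sums of 4875 to 5229 against 4420 to 4978 CPM. Of the 7 oligodendrocyte markers tested, 1 had a positive log2 difference (median -0.11). Their sums overlapped, at 528.4 to 588.7 against 531.0 to 638.9 CPM. Astrocyte marker sums overlapped too, at 3333 to 3709 against 3505 to 3701 CPM, and 3 of those 8 genes had positive log2 differences (median -0.01). The part of these cell types in the values of Mt1 and Nr3c1 was not tested. Mt2 stood at 84.83, 91.93 and 90.30 against 91.74, 73.03 and 64.64 CPM, with a log2 difference of -0.20 (SE 0.10, interval -0.42 to 0.02, adjusted p = 0.97). Its groups overlapped, since GFP-miR-9sp mouse 9 lay among the GFP Ctrl mice. Leaving out that mouse moved the difference to -0.35, and leaving out mouse 23 moved it to -0.10.

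Fkbp5 stood at 81.80, 72.04 and 77.25 CPM in GFP Ctrl mice and at 73.23, 85.79 and 94.91 in GFP-miR-9sp mice. These groups overlapped, and the log2 difference of 0.16 (SE 0.09, interval -0.04 to 0.35) was 0.06 without mouse 23 and 0.25 without mouse 9. Zbtb16 stood at 124.0, 113.0 and 129.6 against 116.6, 117.9 and 125.9, with a difference of -0.003 (interval -0.13 to 0.13), the value nearest to zero among the members. For the genes of low count the intervals were wider: Sgk1 gave -0.16 (-0.46 to 0.14), Tsc22d3 -0.06 (-0.39 to 0.28) and Plin4 -0.16 (-0.63 to 0.31). Sgk1 stood at 6.898, 5.525 and 5.526 against 5.007, 5.001 and 5.845 CPM, and Tsc22d3 at 3.775, 3.578 and 3.725 against 3.703, 3.930 and 2.836. Plin4 stood at 3.309, 3.263 and 4.421 against 2.921, 4.287 and 2.488. All of these groups overlapped.

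After GFP-miR-34sp, 0 of the 9 members passed an adjusted p of 0.05, against 0.064% of all 12492 genes, and DESeq2 also called 0 members. At an unadjusted p under 0.05 there was again 1 member, Zbtb16, against 6.43% of all genes. For 0 of 9 members did the groups stand apart, against 11.6% of all genes. The median log2 difference of the members was -0.01, and that of all genes tested -0.0007.

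Zbtb16 stood at 111.4, 111.3 and 116.7 CPM in the GFP Ctrl mice and at 112.9, 147.8 and 130.3 in the GFP-miR-34sp mice. GFP-miR-34sp mouse 3 lay within the GFP Ctrl range, and mouse 13 was the highest of all 12 mice. The log2 difference was 0.20 (SE 0.08, interval 0.02 to 0.38, unadjusted p = 0.031, adjusted p = 0.71). It was 0.09 without mouse 13 and 0.31 without mouse 3. Choroid plexus markers were lower in the same sponge mice, as given above. The sums of leptomeninges markers (54.25 to 59.69 against 62.09 to 115.6 CPM) were also lower without overlap. The same held for mural cell markers (231.0 to 237.7 against 242.8 to 282.8 CPM), and the sums of the other cell type lists overlapped. The part of these tissues in the Zbtb16 value was not tested.

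The receptors gave narrow intervals in this experiment. Nr3c1 stood at 202.7, 202.9 and 183.8 against 209.8, 201.4 and 205.7 CPM, with a log2 difference of 0.06 (interval -0.03 to 0.16). Nr3c2 stood at 273.5, 286.0 and 261.6 against 277.0, 270.5 and 269.8, with a difference of -0.01 (interval -0.10 to 0.08). Both pairs of groups overlapped, and the Nr3c2 interval was the narrowest of any member.

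Fkbp5 stood at 91.39, 84.41 and 92.26 CPM in GFP Ctrl mice against 84.81, 94.84 and 87.46 in GFP-miR-34sp mice, and the log2 difference was -0.01 (interval -0.13 to 0.12). Sgk1 stood at 5.893, 6.624 and 7.981 against 7.799, 6.082 and 6.523, with a difference of -0.02 (interval -0.36 to 0.31). Neither gene separated the groups. Tsc22d3 stood at 4.171, 4.756 and 5.345 against 3.674, 3.366 and 5.064, and its difference of -0.27 was the largest in size among the members, with an interval from -0.69 to 0.15. Plin4 ranged from 2.403 to 6.749 CPM, both extremes being GFP-miR-34sp mice, and its difference was 0.07 (interval -0.61 to 0.76).

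Mt1 stood at 182.7, 189.1 and 259.7 CPM in GFP Ctrl mice and at 182.0, 188.1 and 230.6 in GFP-miR-34sp mice. Mt2 stood at 87.40, 95.71 and 128.1 against 94.11, 82.08 and 112.5. In both genes 1 mouse of each group was high, GFP Ctrl mouse 10 and GFP-miR-34sp mouse 18. The log2 differences were -0.08 (interval -0.35 to 0.19) for Mt1 and -0.13 (interval -0.42 to 0.17) for Mt2, and without GFP Ctrl mouse 10 they were 0.10 and 0.06.

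**Figure D2:**
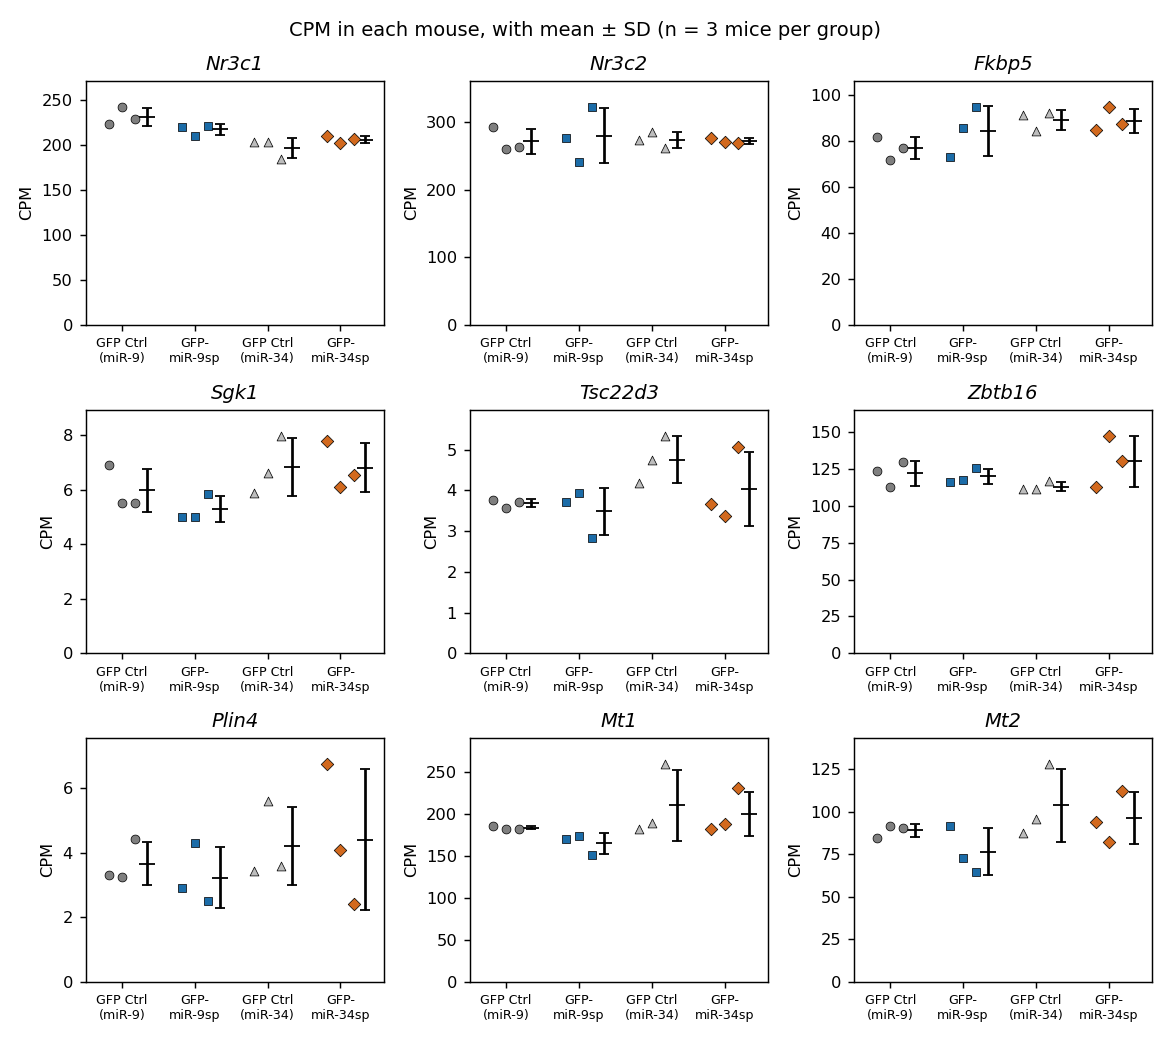
CPM of 9 genes in each of 12 mice (points, 3 per group), with the group mean and SD to the right of the points; each axis starts at 0. Single mice set much of the spread: GFP-miR-9sp mouse 23 is lowest for Mt1, Mt2 and Tsc22d3 and highest for Fkbp5 and Nr3c2, and GFP Ctrl mouse 10 of the miR-34 experiment is highest for Mt1, Mt2, Sgk1 and Tsc22d3.

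The third question was whether the sponge effects differed from each other, tested as an interaction in 1 model of all 12 mice. For 0 of 9 members did the adjusted p fall under 0.05, as for 0.0% of the 12835 genes tested. At an unadjusted p under 0.05 the numbers were 0 of 9 members and 6.1% of genes, and DESeq2 gave 0 members at either threshold. The widest gaps were for Plin4, at -0.23 (miR-9sp effect minus miR-34sp effect, interval -1.13 to 0.66), and Tsc22d3, at 0.21 (interval -0.30 to 0.73). For Nr3c1 the gap was -0.13 (interval -0.27 to 0.01) and for Zbtb16 -0.20 (interval -0.45 to 0.04).

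The sets of GFP Ctrl mice, which carry no sponge, were also compared with each other, as miR-34 minus miR-9 experiment. The sets differ in experiment, in depth and in the word totRNA that only the headers of the miR-9 experiment contain, and these cannot be told apart. Choroid plexus markers differed as well, with sums of 652.9 to 2385 against 129.7 to 752.8 CPM. Of the 8 choroid plexus genes tested, 6 were higher in the miR-34 experiment at an adjusted p under 0.05 and 0 were lower (edgeR). Of all genes 13.5% were higher and 11.7% lower. The part of this tissue in the members' values was not tested. Of the 9 members, 5 had an unadjusted p under 0.05, against 36.9% of all 12878 genes, and 2 had an adjusted p under 0.05, against 25.2%. The adjusted share of the 9 members lies near that of all genes, and the unadjusted share lies above it. Fkbp5 was higher in the miR-34 experiment, at 89.36 ± 4.30 against 77.03 ± 4.88 CPM (SD, n = 3 mice each). Its log2 difference was 0.27 (SE 0.06, interval 0.14 to 0.39, adjusted p = 0.0059). Nr3c1 was lower in the miR-34 experiment, at 196.5 ± 10.98 against 230.9 ± 9.69 CPM (SD, n = 3 mice each), with a difference of -0.18 (SE 0.05, interval -0.29 to -0.08, adjusted p = 0.019). Without GFP Ctrl mouse 10 of the miR-34 experiment, or without GFP Ctrl mouse 8 of the miR-9 experiment, Nr3c1 no longer passed (adjusted p = 0.061 and 0.070).

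Tsc22d3 (0.42, adjusted p = 0.055), Mt2 (0.28, adjusted p = 0.10) and Mt1 (0.25, adjusted p = 0.11) gave positive values that did not pass after adjustment. Tested alone, the leading Tsc22d3 entry gave 0.58 with an adjusted p of 0.040. The values of Mt1 and Mt2 rested on GFP Ctrl mouse 10, without which they were 0.07 and 0.09. Nr3c2 gave 0.06 (interval -0.05 to 0.17) and Zbtb16 -0.06 (interval -0.17 to 0.06). Sgk1 and Plin4 gave 0.25 and 0.24 with intervals that reached below zero.

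**Figure D3:**
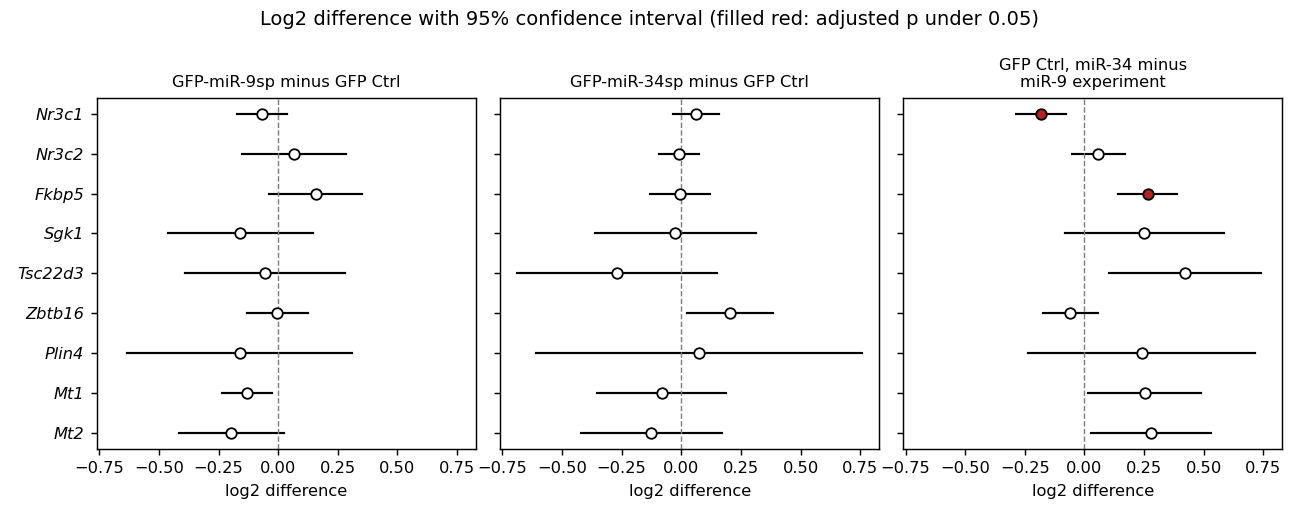
Log2 differences with 95% confidence intervals for 9 genes: GFP-miR-9sp minus its GFP Ctrl, GFP-miR-34sp minus its GFP Ctrl, and GFP Ctrl of the miR-34 minus the miR-9 experiment. Filled points, Nr3c1 (-0.18) and Fkbp5 (0.27) in the last panel, mark an adjusted p under 0.05; none is filled in the sponge panels.

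Lists of genes around the receptors were compared in the same way. None of 11 chaperones and coregulators of the receptor, such as the heat shock proteins that hold it and the corepressor Ncor1, passed an adjusted p of 0.05 in either sponge comparison. In the miR-9 experiment 0 of 11, and in the miR-34 experiment 1 of 11 (lower), had an unadjusted p under 0.05. The smallest p-values after GFP-miR-9sp belonged to Ncor1 (log2 difference -0.12), Hsp90aa1 (0.07) and Stip1 (0.06), with unadjusted p-values of 0.082, 0.11 and 0.24. After GFP-miR-34sp they belonged to Hspa8 (-0.08), Fkbp4 (-0.08) and Stip1 (-0.05), with p-values of 0.049, 0.16 and 0.19. Between the sets of GFP Ctrl mice 5 of the 11 were higher in the miR-34 experiment at an adjusted p under 0.05 and 0 were lower, against 13.5% and 11.7% of all genes tested. The largest of these differences was that of Hsp90aa1, the inducible form of Hsp90, at 2043 ± 90.9 against 942.2 ± 25.8 CPM (SD, n = 3 mice each).

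Genes that set how much steroid reaches the receptor were mostly near or below the limit of 10 scaled reads. Hsd11b1, which regenerates active steroid, had 42 reads over the 12 mice, Hsd11b2, which inactivates it, had 12, and H6pd had 40. Hsd11b1 and H6pd have 2 entries each, so their low values cannot be told apart from reads left uncounted. The 2 of 5 that were tested were Abcb1a, the efflux pump of the blood-brain barrier, and Srd5a1, a steroid reductase. Abcb1a gave 0.05 after GFP-miR-9sp and -0.12 after GFP-miR-34sp, with unadjusted p-values of 0.33 and 0.068. Srd5a1 gave 0.01 and 0.09, with p-values of 0.86 and 0.37. Between the sets of GFP Ctrl mice Abcb1a was higher in the miR-34 experiment (0.24, adjusted p = 0.0089).

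Of 20 other genes known to respond to glucocorticoids, 15 were tested, and 0 passed an adjusted p of 0.05 in either sponge comparison. Their median log2 difference was 0.02 after GFP-miR-9sp and 0.01 after GFP-miR-34sp. After GFP-miR-9sp the smallest p-values were those of Klf9 (-0.07), Gpd1 (0.07) and Sult1a1 (0.11), with unadjusted p-values of 0.12, 0.20 and 0.42. After GFP-miR-34sp they were those of Errfi1 (-0.27), Nfkbia (-0.25) and Map3k6 (0.30), with p-values of 0.0078, 0.061 and 0.089. Errfi1, an inhibitor of the EGF receptor, was the only gene of this list under 0.05 in that experiment, and its adjusted p was 0.56. Between the sets of GFP Ctrl mice 5 of the 15 were higher in the miR-34 experiment at an adjusted p under 0.05 and 0 were lower, against the same 13.5% and 11.7% of all genes.

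Genes of metal handling, of the daily clock and of neuronal activity formed further lists. None of the 4 metal-related, 8 clock and 7 immediate early genes tested had an unadjusted p under 0.05 in either sponge comparison. For the metal-related genes the values after GFP-miR-9sp were 0.06 for the zinc importer Slc39a10, -0.07 for Mtf1 and -0.03 for the zinc exporter Slc30a1, with unadjusted p-values of 0.15, 0.23 and 0.58. After GFP-miR-34sp they were -0.06 for Mt3, the brain form of metallothionein, -0.01 for Mtf1 and -0.01 for Slc30a1, with p-values of 0.22, 0.82 and 0.93. Clock genes with the smallest p-values were Ciart (0.07), Arntl (0.08) and Nr1d1 (0.02) after GFP-miR-9sp, at 0.60, 0.62 and 0.62. After GFP-miR-34sp they were Tef (-0.17), Dbp (-0.05) and Ciart (0.05), at 0.36, 0.69 and 0.83. Immediate early genes varied widely within groups, with a summed level of 321.5 to 834.1 CPM in the GFP Ctrl mice of the miR-9 experiment. Their smallest p-values were those of Npas4 (0.47), Egr1 (-0.21) and Nr4a1 (-0.28) after GFP-miR-9sp, at 0.36, 0.47 and 0.54. After GFP-miR-34sp they were those of Fosb (-0.23), Nr4a1 (-0.15) and Egr1 (0.07), at 0.40, 0.65 and 0.79. Between the sets of GFP Ctrl mice 4 genes of these lists (4, 8 and 7 tested) passed an adjusted p of 0.05. That share was not above the 25.2% of all 12878 genes. These genes are named because they passed, after their values were seen. Mt3 (0.43, adjusted p = 3.1e-05) and the clock gene Tef (0.77, adjusted p = 0.0015) were higher in the miR-34 experiment. Slc39a10 (-0.24, adjusted p = 0.0011) and the clock gene Per2 (-0.34, adjusted p = 0.0014) were lower. None of the 7 immediate early genes passed, adjusted or unadjusted.

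The fourth question was whether the members varied together from mouse to mouse. Pearson's r of log2 CPM was taken for the 36 pairs of the 9 members, over the 6 mice of each experiment and over the 12 mice after the mean of each experiment was subtracted. Group means were not subtracted, so a difference between sponge and GFP Ctrl mice also enters r. The numbers of positive pairs were 17 of 36 in the miR-9 experiment and 14 of 36 in the miR-34 experiment, and 6 pairs were positive in both. The median r was -0.06 in the miR-9 experiment, -0.23 in the miR-34 experiment and -0.14 (-0.145) over the 12 mice. In each of these families 0 of 36 pairs had an adjusted p under 0.05, by Pearson's r or by Spearman's rho. Within an experiment the 720 pairings of 6 mice set a floor to the p-value. A single pair could not pass the adjustment there, however high its r, so these 0 counts do not show that pairs were unrelated. At an unadjusted p under 0.05 there were 2, 2 and 5 pairs.

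**Figure D4:**
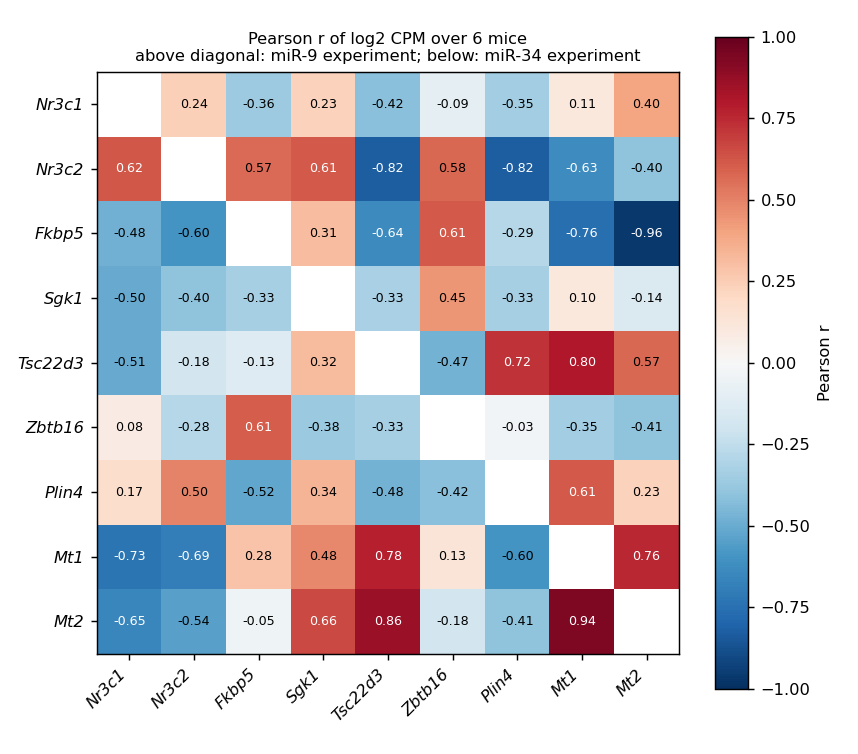
Pearson's r of log2 CPM for each pair of 9 genes over the 6 mice of the miR-9 experiment (above the diagonal) and of the miR-34 experiment (below it). Mt1, Mt2 and Tsc22d3 give positive values with each other on both sides, whereas Fkbp5 and Mt2 give -0.96 above and -0.05 below.

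Mt1, Mt2 and Tsc22d3 gave the highest values. For Mt1 and Mt2 r was 0.76 in the miR-9 experiment and 0.94 (0.935) in the miR-34 experiment. Over the 12 mice r was 0.85 (permutation p = 0.0023, adjusted p = 0.082) and Spearman's rho was 0.77 (permutation p = 0.0093). Without the 2 mice farthest from the median of Mt1, GFP Ctrl mouse 10 and GFP-miR-34sp mouse 18 of the miR-34 experiment, r was 0.72. Leaving out GFP-miR-9sp mouse 9 raised it to 0.90, with an adjusted p of 0.042, the one case in which a pair passed. The genes are paralogs with similar coding sequences, and whether reads were shared between them was not tested.

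For Tsc22d3 and Mt1 r was 0.80 and 0.78 in the experiments and 0.78 over the 12 mice (permutation p = 0.014, adjusted p = 0.16), with a rho of 0.77 (permutation p = 0.01). Without the 2 mice farthest from the median of Tsc22d3 it was 0.79. For Tsc22d3 and Mt2 the values were 0.57, 0.86 and 0.76 (permutation p = 0.0072, adjusted p = 0.13), with a rho of 0.69 (permutation p = 0.025), and 0.57 without those 2 mice. None of these pairs passed the adjustment, and each was positive in both experiments. By rank the values within the miR-9 experiment were much lower, with a rho of 0.20 for Mt1 and Mt2, 0.37 for Tsc22d3 and Mt1 and 0.03 for Tsc22d3 and Mt2. In the miR-34 experiment the same rho values were 0.77, 0.83 and 0.94.

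The remaining pairs were less even between the experiments, or had adjusted p-values further from the threshold. Fkbp5 and Mt2 gave an r of -0.96 in the miR-9 experiment (exact permutation p = 0.0028, adjusted p = 0.10) and -0.05 in the miR-34 experiment. Nr3c2 and Plin4 gave -0.82 and 0.50. Nr3c2 and Mt1 gave -0.63 and -0.69, and -0.39 over the 12 mice (permutation p = 0.040, adjusted p = 0.30). Fkbp5 and Zbtb16 gave 0.61 in both experiments and 0.47 over the 12 mice (permutation p = 0.050, adjusted p = 0.30). For the receptor pair, Nr3c1 and Nr3c2, r was 0.24 and 0.62, and over the 12 mice it was 0.27 with all mice and -0.41 without the 2 mice farthest from the median of Nr3c1, so that its sign rested on those mice. Nr3c1 gave a negative r with both Fkbp5 (-0.36 and -0.48) and Tsc22d3 (-0.42 and -0.51) in the 2 experiments, with adjusted p-values of 0.69 or more.

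**Figure D5:**
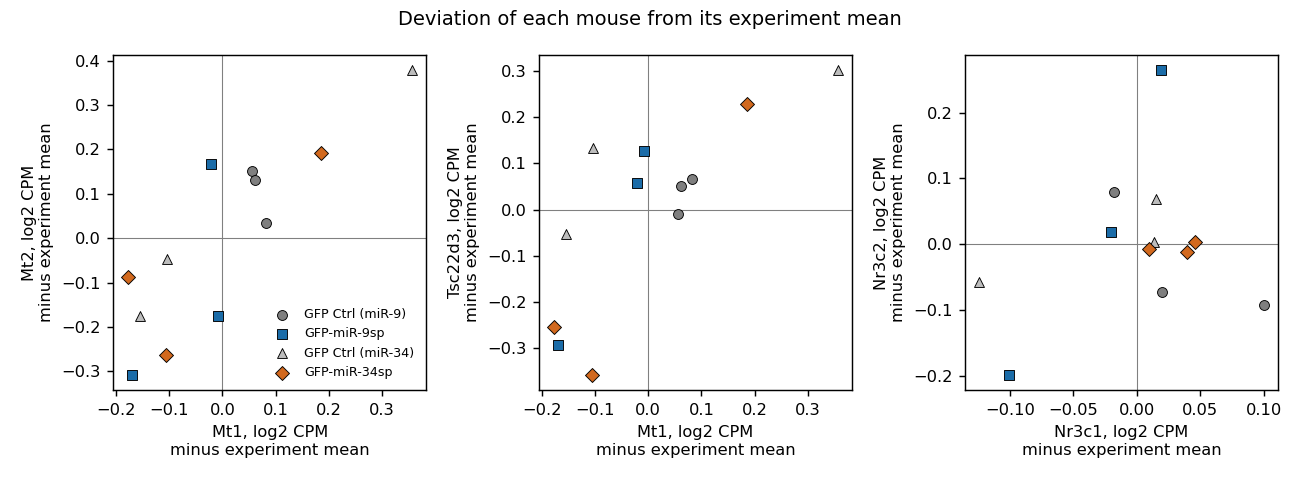
Deviation of each of 12 mice from its experiment mean, in log2 CPM, for Mt1 and Mt2, Mt1 and Tsc22d3, and Nr3c1 and Nr3c2. The highest Mt1 point (0.356 above the mean) is GFP Ctrl mouse 10 of the miR-34 experiment, and the highest Nr3c2 point (0.265) is GFP-miR-9sp mouse 23.

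The members were also set against the summed levels of 10 lists, 8 of cell type markers and those of the immediate early and clock genes. These were 90 relations over the 12 mice, of which 0 had an adjusted p under 0.05. With choroid plexus markers the value of r furthest from zero was that of Zbtb16, at -0.43 (adjusted p = 0.69). Its rho was -0.55 (adjusted p = 0.64), and its r was 0.02 in the miR-9 experiment and -0.62 in the miR-34 experiment. In the miR-34 experiment the choroid plexus sums of sponge and GFP Ctrl mice did not overlap, and this group difference enters the r. Over the 12 mice r was -0.40 for Nr3c1, 0.38 for Plin4, 0.36 for Tsc22d3 and -0.10 for Mt2. For Mt1 it was 0.00, from 0.54 in the miR-9 experiment and -0.18 in the miR-34 experiment. Zbtb16 gave an r of -0.47 with leptomeninges markers and -0.49 with mural cell markers (adjusted p = 0.66 each). Over the 10 lists, the largest values of r were those of Fkbp5 with hippocampal neuron markers (0.75, adjusted p = 0.60), Mt1 with endothelial markers (-0.71, adjusted p = 0.66) and Nr3c1 with oligodendrocyte markers (0.70, adjusted p = 0.60). By rank the same relations gave a rho of 0.66, -0.57 and 0.87, with adjusted p-values of 0.49, 0.64 and 0.18. For Nr3c1 with oligodendrocyte markers r was 0.845 in the miR-9 and 0.573 in the miR-34 experiment. The part of these cell types in the members' values was not tested.

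Finally, all 12388 genes with more than 10 scaled reads in both experiments were ranked by likeness to each member, taken as the lower of the 2 within-experiment values of r over 6 mice. With 6 mice and so many genes, high values are found for every member, and they are given as a description. The 3 most alike were Txndc16, Rnf13 and Prickle1 for Nr3c1 (0.90, 0.89 and 0.88) and Fez2, Erich1 and Synj1 for Nr3c2 (0.88, 0.86 and 0.86). For Fkbp5 they were Nptxr, Ctif and Hspa12a (0.94, 0.90 and 0.88), and for Zbtb16 Lrfn5, Pde3b and B4gat1 (0.89, 0.84 and 0.82). For Sgk1 they were Mir568, Magoh and St3gal5 (0.80 each), and for Tsc22d3 Mfap3l, Insyn2b and Zfp791 (0.91, 0.89 and 0.88). For Plin4 they were Sall3, Sned1 and Zfp598 (0.94, 0.92 and 0.91), for Mt1 Ndufa5, Nsg2 and Xpc (0.94, 0.93 and 0.93), and for Mt2 Uba1, Zfp655 and Rpl37a (0.96, 0.94 and 0.93).

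No member was among the 3 most alike of any other. Mt1 stood at rank 31 for Tsc22d3 and at rank 34 for Mt2. For Mt1 itself, Tsc22d3 stood at rank 40 and Mt2 at rank 49. Fkbp5 stood at rank 88 for Zbtb16. Nr3c2 stood at rank 1490 for Nr3c1, and Fkbp5 at rank 8650.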

How the data were processed

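The authors mapped 50 bp single end reads to mm9, per the methods, and counted them to RefSeq entries. The submitters' processing notes name STAR and mm10. The methods give the NuGEN Ovation kit with poly-A enrichment, and the labels Illumina kits. What was deposited are raw counts for each entry, before the scaling described in the methods. Beside the counts, the authors deposited the length of each entry in bases (another kind of value). No coordinates come with the counts, so positions were taken from RefSeq tables on GRCm38.p6.

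Of 32850 entries, 98.7% were joined to a symbol, and counts were summed per symbol. CPM were taken on total counts and divided by the entry length where genes were compared with each other. Sponge and GFP Ctrl mice of an experiment were compared by edgeR 4.0.16 (R 4.3.3) with its quasi-likelihood test and TMM normalization, on genes whose reads, scaled to the average total, had a mean over the 6 mice above 10. The methods use an unpaired two-sided test on scaled values, which was an alternative because counts need a count model. P-values were adjusted over all genes tested (Benjamini-Hochberg), with a limit of 0.05. Replicates differed by more than sampling noise in every group (mean chi-square per gene of 2.56 to 13.4 between pairs of mice), and each was counted as 1 sample.

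Correlations used log2 CPM with 0.5 reads added. Their p-values were two-sided, from all 720 pairings of 6 mice or from 100000 resamples within experiments for 12 mice, adjusted over 36 pairs (90 relations for the lists of markers, immediate early and clock genes). The smallest p that the resamples can give is 1e-05. Hif3a was not tested and has no pairs. Floors were set at 3 reads per mouse. All members are named, with the 3 genes most like each, and from each list of related genes the 3 with the smallest p in each sponge comparison, because no gene of those lists passed the adjustment. The members and lists were chosen with earlier results of these data known. Other tools and software were DESeq2 1.42.0, Python 3.11.15, scipy 1.17.1 and pandas 2.3.3, and the code was tested on simulated data. The alternatives were DESeq2, other size factors, other limits on low counts, entries tested separately, the test of the methods, 1 model of all 12 mice, other forms of the correlation, and the removal of 1 mouse at a time. Data of the miR-124 experiment were not used here, and 1 gene of the chaperone and coregulator list is not reported here.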

Additional observations from a re-analysis of the deposited data

How the results depend on the processing

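No paired analysis was possible because the sponge and GFP Ctrl mice of an experiment share fewer than 2 replicate numbers in the labels. Across 14 alternatives in each sponge comparison, 0 members passed an adjusted p of 0.05. The number at an unadjusted p under 0.05 was 1 after GFP-miR-9sp, and it became 2 (Mt1 and Mt2) with DESeq2 and with all genes of at least 1 read, 0 with the test of the methods and with 1 model of all 12 mice, and 0 (without GFP Ctrl mouse 2 or sponge mouse 23) to 3 (without sponge mouse 9) when single mice were left out. After GFP-miR-34sp it was 1, became 0 with the test of the methods, and was 0 (without GFP Ctrl mouse 4 or 8 or sponge mouse 13) to 1 when single mice were left out. Without sponge mouse 18 the 1 gene was Tsc22d3, not Zbtb16. For the difference between the sponge effects it was 0, became 2 (Nr3c1 and Zbtb16) on total counts and with all genes of at least 1 read, and was 0 to 2 (without GFP-miR-9sp mouse 23) when single mice were left out. Between the sets of GFP Ctrl mice it was 5, became 2 with DESeq2 and 3 on total counts, and was 2 (without miR-34 GFP Ctrl mouse 10) to 5, with 3 without miR-9 GFP Ctrl mouse 16. There the number at an adjusted p under 0.05 was 2, became 4 with all genes of at least 1 read (Mt1 and Mt2 in addition), and was 1 (without miR-9 GFP Ctrl mouse 8 or miR-34 GFP Ctrl mouse 10) to 4 (without miR-34 GFP Ctrl mouse 4). Fkbp5 passed in all 12 of these alternatives, with adjusted p-values of 0.0012 to 0.027. The number of pairs of members with an unadjusted p under 0.05 was 5, became 3 by Spearman's rho and was 2 (without GFP-miR-9sp mouse 23) to 6 when single mice were left out, and at an adjusted p it was 0 to 1. The cause of these moves was not tested.

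No value with an adjusted p under 0.05 changed sign under any alternative. Small differences changed sign when single mice were left out, in 4 members after GFP-miR-9sp and 6 after GFP-miR-34sp. Without single mice, the log2 difference after GFP-miR-9sp ranged from -0.059 to 0.176 for Nr3c2, from -0.137 to 0.057 for Tsc22d3, from -0.056 to 0.043 for Zbtb16 and from -0.410 to 0.004 for Plin4. The leading Tsc22d3 entry tested alone gave 0.098. After GFP-miR-34sp the ranges were -0.041 to 0.022 for Nr3c2, -0.061 to 0.036 for Fkbp5, -0.125 to 0.109 for Sgk1, -0.330 to 0.335 for Plin4, -0.196 to 0.102 for Mt1 and -0.253 to 0.061 for Mt2. Between the sets of GFP Ctrl mice the range for Plin4 was -0.009 to 0.406. For the difference between the sponge effects the ranges were -0.048 to 0.185 for Nr3c2, -0.495 to 0.170 for Plin4, -0.229 to 0.068 for Mt1 and -0.254 to 0.058 for Mt2. With 3 mice per group, and Sgk1, Tsc22d3 and Plin4 at 28 to 148 reads per mouse, the intervals in the text set what could be seen.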
